A study of Mus musculus with 9 samples.

Results

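This account follows 10 genes of the NF-κB system in mouse leg muscle: the 5 subunit genes Nfkb1, Nfkb2, Rela, Relb and Rel, the inhibitor genes Nfkbia, Nfkbib and Nfkbie, the nuclear regulator Nfkbiz, and Tnfaip3. They were picked out by gene symbol, as 10 of the 55335 genes in the deposited tables, with earlier results of these data known. RNA was sequenced from leg muscle of 9 WT mice of 1 strain, written c57b6l in the labels, and every mouse had undergone a hindlimb model named for both suspension and ischemia. 3 mice received aspirin combined with a peptide hydrogel (the hydrogel group), 3 received aspirin alone (the Aspirin group), and 3 were left untreated (the Control group). Each mouse gave 1 library. The labels give no age, sex, dose, route or time after injury. No uninjured muscle and no muscle with hydrogel alone was analysed here.

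NF-κB is a family of transcription factors that bind DNA as dimers. In resting cells the dimers are held in the cytoplasm by IκB proteins. Signals such as TNF, interleukin 1 or Toll-like receptor ligands activate the IκB kinase, the IκB protein is destroyed, and the dimer enters the nucleus. Several of its target genes encode its own inhibitors, so their transcripts are often read as a record of recent NF-κB activity. In skeletal muscle the pathway is known for its part in inflammation, in wasting and in the response to disuse. Aspirin blocks the cyclooxygenases, and its product salicylate has been described to inhibit the IκB kinase in cultured cells. Transcript levels do not measure where the NF-κB proteins are in the cell.

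Total counts per library ran from 32197791 to 48170537, and 18259 genes passed the filter on low counts, all 10 NF-κB genes among them. The 12 muscle fibre markers were detected in every library, so the labelled tissue was seen in all. Replicates varied widely: principal component 1 (51.9% of the variance) placed Aspirin replicate 1 at 152 and hydrogel replicate 3 at -101, with the remaining 7 between -39.2 and 49.2. Aspirin replicate 1 had a summed muscle fibre marker level of 23539 CPM (the count scaled by the TMM-adjusted size of its library), the lowest of the 9, and a summed lymphocyte marker level of 1069 CPM, the highest. Results that rest on it are given with and without it. In bulk muscle, fewer cells of a type and less RNA per cell cannot be told apart.

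The deposited FPKM scale divides by a length for each gene, so an order of genes on it rests on those lengths. Counts and FPKM implied a median length of 13.2 kb for Nfkb1, 8.20 kb for Rel, 7.99 kb for Tnfaip3 and 1.76 kb for Nfkbia. Without a length correction, the mean over the 9 libraries was 43.7 CPM for Nfkb1 and 32.9 CPM for Nfkbia. On the FPKM scale, Nfkbia had the highest mean level over the 9 libraries, 19.8 FPKM. Rela followed at 9.81 FPKM, Nfkbib at 7.52 FPKM and Nfkb2 at 6.39 FPKM. Nfkbia lay above Rela in 8 of 9 libraries, Rela above Nfkbib in 7, Nfkbib above Nfkb2 in 7, and Nfkb2 above Nfkb1 in 9. Nfkb1 at 3.46 FPKM and Relb at 3.44 FPKM could not be ordered, since Nfkb1 was the higher in 4 of 9 libraries. Relb lay above Rel (2.81 FPKM) in 8 libraries, and Rel above Nfkbie (2.16 FPKM) in 7. Nfkbie, Nfkbiz (2.15 FPKM) and Tnfaip3 (1.85 FPKM) did not separate either, each lying above the next in 5 of 9 libraries.

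**Figure D1:**
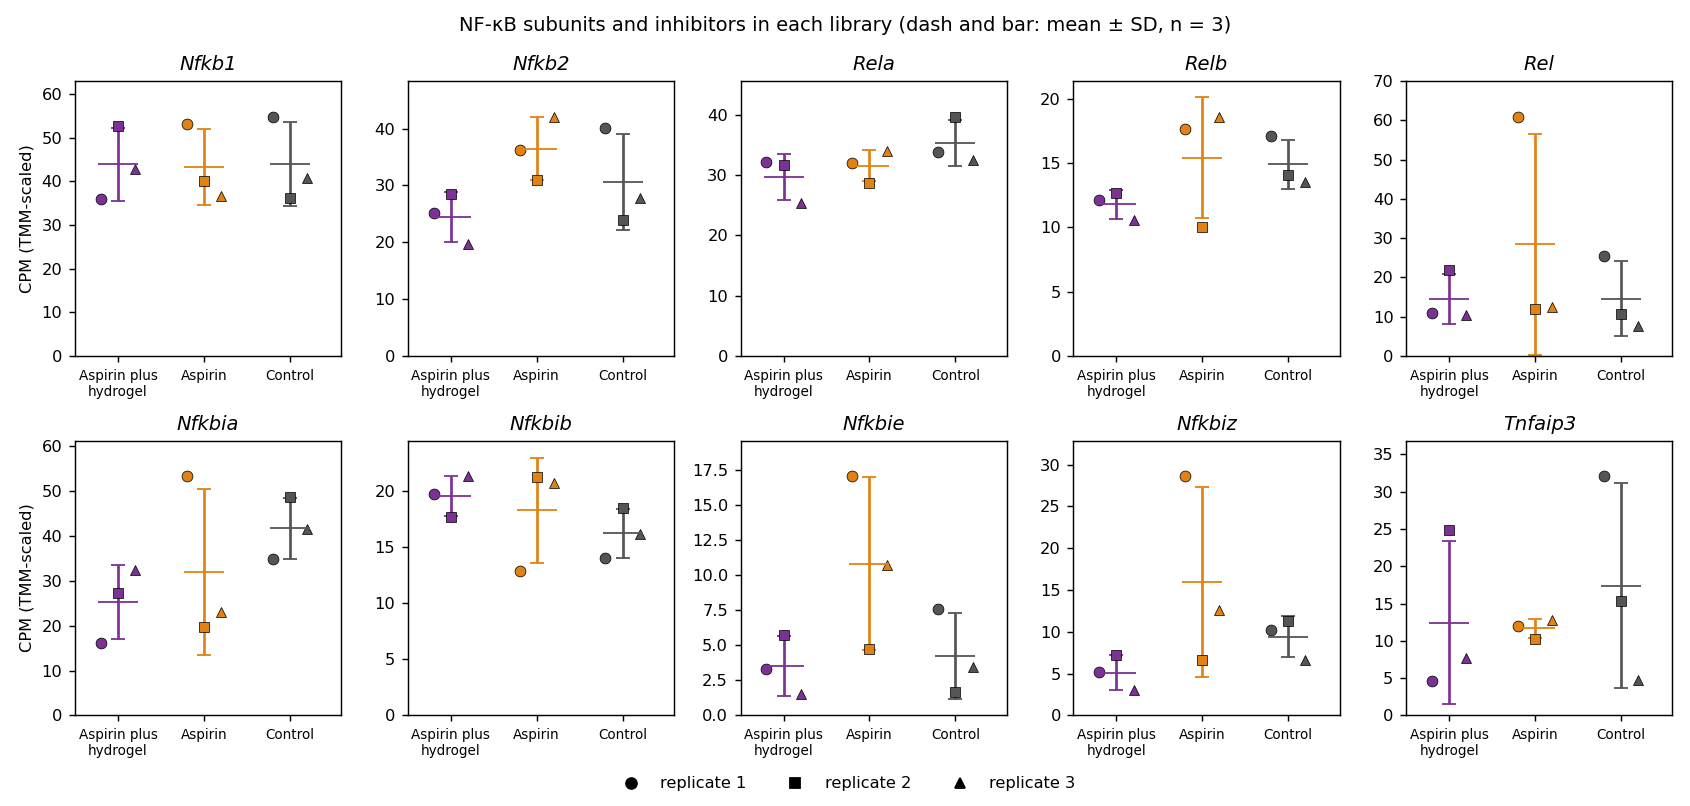
CPM (TMM-scaled, vertical axis from 0) of each of the 10 genes in the 3 groups, with 1 symbol per library and the mean ± SD of 3 libraries as a dash and bar. Nfkb1, Rela and Nfkbib stay within a narrow band in all 9 libraries, while Rel, Nfkbie and Nfkbiz are highest in Aspirin replicate 1, at 60.9, 17.0 and 28.6 CPM.

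The subunits of the canonical dimers kept within a narrow range. Nfkb1 (ENSMUSG00000028163, chr3:135584655-135691547, minus strand) encodes p105, the precursor of the p50 subunit. Positions of genes are given on mm10. It had 36.0, 52.6 and 42.9 CPM in the hydrogel libraries, 53.2, 40.0 and 36.6 CPM in the Aspirin libraries, and 54.8, 36.2 and 40.8 CPM in the Control libraries. The 3 groups overlapped fully, and the highest library was 1.52 times the lowest. Rela (ENSMUSG00000024927, chr19:5637483-5648130, plus strand) encodes p65, the subunit that carries the transactivation domain of the commonest dimer. It had 32.1, 31.7 and 25.3 CPM in the hydrogel libraries, 32.0, 28.8 and 34.0 CPM in the Aspirin libraries, and 33.8, 39.7 and 32.5 CPM in the Control libraries. Every hydrogel library lay below every Control library for Rela, by a narrow margin, and the highest of the 9 libraries was 1.57 times the lowest.

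The subunits of the alternative pathway, which signals through receptors such as the lymphotoxin β receptor, varied a little more. Nfkb2 (ENSMUSG00000025225, chr19:46304320-46312385, plus strand) encodes p100, which acts as an inhibitor until it is cut to the p52 subunit. It had 25.2, 28.4 and 19.6 CPM in the hydrogel libraries, 36.3, 31.0 and 42.1 CPM in the Aspirin libraries, and 40.2, 23.9 and 27.8 CPM in the Control libraries. All 3 hydrogel libraries lay below all 3 Aspirin libraries, and the Control libraries spanned both ranges. Relb (ENSMUSG00000002983, chr7:19606217-19629438, minus strand), the usual partner of p52, had 12.1, 12.7 and 10.5 CPM in the hydrogel libraries, 17.6, 10.03 and 18.6 CPM in the Aspirin libraries, and 17.1, 14.0 and 13.5 CPM in the Control libraries. The hydrogel libraries again lay below the Control libraries, while Aspirin replicate 2 was the lowest of all 9. Exons of Nfkb2 share 531 bases with AC114539.1 and 299 bases with Psd on the opposite strand; the strand setting of the counting is not given in the sources used here, so part of the Nfkb2 count may belong to those genes, which average 148 and 228 counts a library against 1274 for Nfkb2.

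Rel (ENSMUSG00000020275, chr11:23736847-23770970, minus strand) encodes c-Rel, the subunit best known from lymphocytes and other blood cells. It had 11.0, 21.9 and 10.5 CPM in the hydrogel libraries, 60.9, 12.0 and 12.4 CPM in the Aspirin libraries, and 25.5, 10.6 and 7.68 CPM in the Control libraries. 1 library of each group stood above the other 2, and the range over the 9 libraries was 7.93-fold, or 3.32-fold without Aspirin replicate 1. The same 3 libraries had the highest summed level of the 11 lymphocyte markers, at 137 CPM in hydrogel replicate 2, 1069 CPM in Aspirin replicate 1 and 401 CPM in Control replicate 1, against 8.29 to 85.0 CPM in the other 6. The part of lymphocyte RNA in the Rel level was not tested.

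Nfkbia (ENSMUSG00000021025, chr12:55489410-55492647, minus strand) encodes IκBα, the inhibitor that is destroyed within minutes of a signal and remade as an NF-κB target. It had 16.1, 27.2 and 32.3 CPM in the hydrogel libraries, 53.2, 19.8 and 23.0 CPM in the Aspirin libraries, and 34.9, 48.6 and 41.4 CPM in the Control libraries. 5 of the 6 libraries from treated mice lay below the lowest Control library, and the remaining one, Aspirin replicate 1, was the highest of all 9. Nfkbib (ENSMUSG00000030595, chr7:28758251-28767512, minus strand) encodes IκBβ, an inhibitor that responds more slowly. It had 19.7, 17.7 and 21.3 CPM in the hydrogel libraries, 12.8, 21.2 and 20.7 CPM in the Aspirin libraries, and 14.1, 18.4 and 16.2 CPM in the Control libraries. Its range was 1.66-fold, the groups overlapped, and Aspirin replicate 1 was here the lowest library. Exons of Nfkbib share 314 bases with Ccer2 and 42 bases with Sirt2 on the opposite strand, and Sirt2, at 2389 counts a library against 721 for Nfkbib, could add to its count.

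Nfkbie (ENSMUSG00000023947, chr17:45555703-45563169, plus strand) encodes IκBε, another inducible inhibitor of the cytoplasm. It had 3.29, 5.77 and 1.50 CPM in the hydrogel libraries, 17.0, 4.71 and 10.7 CPM in the Aspirin libraries, and 7.59, 1.68 and 3.43 CPM in the Control libraries. It was the most variable gene of the set, with a range of 11.3-fold, or 7.14-fold without Aspirin replicate 1. Aspirin replicates 1 and 3 were the highest 2 libraries, but Aspirin replicate 2 lay inside the range of the other groups.

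The promoters of these inhibitors and of Nfkb2 are shown because feedback of NF-κB on its own genes acts through such windows, and because the inhibitors Nfkbia and Nfkbib, compared as a ratio further on, differ in them. RefSeq promoter windows (GRCm38.p6, 250 bases before to 50 after the start) were found for 7 of the 10 genes; Nfkb1, Relb and Nfkbiz had no window in that table. Each is written 5′ to 3′ on the strand of the gene, and capitals mark matches on either strand to the classical κB consensus, a 10-base motif that binds NF-κB dimers and that begins with GGG and ends with CC on its forward strand; overlapping matches are joined.
Nfkbia (chr12:55492598-55492897, minus strand): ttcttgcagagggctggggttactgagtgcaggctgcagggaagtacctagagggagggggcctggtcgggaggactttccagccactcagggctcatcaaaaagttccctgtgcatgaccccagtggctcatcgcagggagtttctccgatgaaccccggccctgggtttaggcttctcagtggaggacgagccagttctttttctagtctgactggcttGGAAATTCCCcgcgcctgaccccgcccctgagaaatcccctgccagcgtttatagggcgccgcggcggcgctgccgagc
Nfkbib (chr7:28766595-28766894, minus strand): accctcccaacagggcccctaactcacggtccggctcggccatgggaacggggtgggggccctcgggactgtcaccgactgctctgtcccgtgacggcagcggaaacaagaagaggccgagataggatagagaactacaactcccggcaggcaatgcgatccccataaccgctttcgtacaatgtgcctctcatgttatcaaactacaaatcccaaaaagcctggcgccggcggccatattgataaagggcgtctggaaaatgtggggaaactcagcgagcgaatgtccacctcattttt
Nfkbie (chr17:45555450-45555749, plus strand): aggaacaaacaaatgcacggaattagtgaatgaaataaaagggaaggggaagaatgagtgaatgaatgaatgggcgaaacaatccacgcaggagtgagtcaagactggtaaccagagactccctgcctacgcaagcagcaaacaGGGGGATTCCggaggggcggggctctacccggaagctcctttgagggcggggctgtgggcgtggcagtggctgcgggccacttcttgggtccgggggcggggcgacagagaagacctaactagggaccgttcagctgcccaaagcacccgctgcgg
Nfkb2, the first of 3 windows (chr19:46304487-46304786, plus strand): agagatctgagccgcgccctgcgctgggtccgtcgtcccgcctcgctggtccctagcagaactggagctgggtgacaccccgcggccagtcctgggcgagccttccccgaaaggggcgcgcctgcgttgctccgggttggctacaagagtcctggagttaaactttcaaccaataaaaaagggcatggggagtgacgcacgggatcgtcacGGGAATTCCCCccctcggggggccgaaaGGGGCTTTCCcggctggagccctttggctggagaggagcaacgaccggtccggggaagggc

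The Nfkbia window held 1 match, GGGAATTTCC on the reverse strand, at -29 to -20 from the start. The Nfkbie window held 1, GGGGGATTCC on the forward strand, at -106 to -97, and the Nfkb2 window held 4 matches between -39 and -2, 3 of which overlap. Among the 4, GGGAATTCCC at -39 to -30 reads the same on both strands and counts as 2. The Nfkbib window held none, and none of a looser pattern (GGG, any 5 letters, CC). In all, 5 of the 7 genes had a match to the consensus in at least 1 window (Nfkb2, Rel, Nfkbia, Nfkbie and Tnfaip3, but not Rela or Nfkbib), against 9.55% of the 27025 genes in the table. The looser pattern, searched on both strands, was found in 50.8% of the 32851 windows and says little. A match describes the letters of a window and is not evidence of binding in these muscles.

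Nfkbiz (ENSMUSG00000035356, chr16:55811375-55838899, minus strand) encodes IκBζ, an inducible nuclear protein that works with p50 and is needed for secondary inflammatory genes such as Il6. It had 5.15, 7.22 and 3.04 CPM in the hydrogel libraries, 28.6, 6.61 and 12.7 CPM in the Aspirin libraries, and 10.2, 11.3 and 6.66 CPM in the Control libraries. Aspirin replicates 1 and 3 were again the highest, Aspirin replicate 2 lay between hydrogel replicates 1 and 2, and hydrogel replicate 3 was the lowest of the 9. Tnfaip3 (ENSMUSG00000019850, chr10:19000910-19015657, minus strand) encodes A20, a ubiquitin-editing enzyme that shuts off signalling upstream of the kinase. It had 4.67, 24.9 and 7.64 CPM in the hydrogel libraries, 12.0, 10.3 and 12.8 CPM in the Aspirin libraries, and 32.0, 15.3 and 4.80 CPM in the Control libraries. The Aspirin libraries lay close together, inside the wide and overlapping ranges of the other 2 groups.

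Aspirin against Control asked whether the drug alone changed the NF-κB system of injured muscle. None of the 10 genes passed edgeR's quasi-likelihood test at an adjusted p of 0.05, adjusted p 0.753 to 0.988 over the 18259 genes, and in the same test 0% of all genes were called. The largest difference was that of Nfkbie, which averaged 10.8 ± 6.17 CPM in the Aspirin group and 4.23 ± 3.04 CPM in the Control group (SD, n = 3 each), a log2 fold change of 1.35 ± 0.69 (SE). Its 95% interval ran from -0.21 to 2.91. Rel followed at 0.96 ± 0.71 and Nfkbiz at 0.76 ± 0.53, and Tnfaip3 lay lowest at -0.57 ± 0.72. Nfkb1 at -0.021 ± 0.25, Relb at 0.049 ± 0.26 and Rela at -0.16 ± 0.18 had intervals within 0.64 log2 units of 0.

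6 of the 10 fold changes were above 0 and 4 below, with a median of 0.11, beside a median of 0.046 over all genes, of which 54.0% were above 0. Without Aspirin replicate 1, 4 were above 0 and the median was -0.12, and without Control replicate 2 the median was 0.054. Scaled by library size alone, 9 were above 0, with the median of all genes at 0.27. At an unadjusted p under 0.05 the count was 0 of 10, against 6.48% of all genes. For none of the 10 did the groups fail to overlap, against 11.0% of all genes. DESeq2 called 0 of the 10 and 0.559% of all genes, with a lowest adjusted p of 0.538 among the 10. Some values depended on single libraries. Without Aspirin replicate 1, Nfkbia stood at -0.97 (unadjusted p 0.0121) in place of -0.38 ± 0.40, Rel at -0.28, Nfkbiz at 0.023 and Nfkbie at 0.84. Without Aspirin replicate 2, Nfkbie at 1.70 and Nfkbiz at 1.13 had an unadjusted p under 0.05 (0.0403 and 0.0421), and without Control replicate 1 so did Nfkbie at 2.08 (0.0226). At that threshold 3.48% of all genes were lower without Aspirin replicate 1. Of all genes, 3.19% were higher without Aspirin replicate 2 and 2.86% without Control replicate 1. No adjusted p passed in any of these fits.

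Aspirin plus hydrogel against Control asked the same of the combined treatment. None of the 10 genes passed edgeR's quasi-likelihood test, adjusted p 0.987 to 0.999, and again 0% of all genes did. 9 of 10 fold changes were below 0, with a median of -0.30, beside a median of -0.030 over all genes, of which 47.1% were above 0. That count rested on single libraries: without Control replicate 1, 5 were above 0 and 5 below, with a median of 0.048, and without hydrogel replicate 1 or 3, 7 were below 0, with a median of -0.26 or -0.19. Nfkbiz had the lowest, -0.87 ± 0.53 (SE), with 5.14 ± 2.09 CPM in the hydrogel group and 9.40 ± 2.44 CPM in the Control group (SD, n = 3 each). Nfkbia averaged 25.2 ± 8.28 CPM in the hydrogel group and 41.6 ± 6.83 CPM in the Control group, a log2 fold change of -0.72 ± 0.41 with an interval of -1.64 to 0.19. Nfkbib, at 0.27 ± 0.24, was the gene above 0.

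The groups did not overlap for Rela, Relb and Nfkbia, with the hydrogel libraries lower each time. That is 3 of 10 genes, against 6.30% of all genes that were lower without overlap and 13.2% without overlap in either direction. At an unadjusted p under 0.05 the count was 0 of 10, against 3.92% of all genes, and it stayed at 0 in each of the 6 fits that left out 1 library. In those fits 0.746% to 1.75% of all genes were higher and 0.944% to 2.48% were lower. DESeq2 called 0 of the 10 and 0.0986% of all genes. Rel at -0.012 ± 0.70 and Nfkb1 at -0.0019 ± 0.25 lay nearest to 0, but the interval of Rel was wide, from -1.60 to 1.58, against -0.56 to 0.56 for Nfkb1.

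Aspirin plus hydrogel against Aspirin asked what the hydrogel added to the drug, and the largest fold changes of the 10 genes in the 3 comparisons were measured here. Each pair of comparisons shares 1 group of 3 libraries. Nfkbiz, Nfkbie and Nfkb2 were lower in the hydrogel group at unadjusted p of 0.0141, 0.0453 and 0.0482 in edgeR's quasi-likelihood test, but not after adjustment over all genes, where each had an adjusted p of 0.453 or 0.454. Nfkbiz averaged 5.14 ± 2.09 CPM in the hydrogel group and 16.0 ± 11.4 CPM in the Aspirin group (SD, n = 3 each), a log2 fold change of -1.63 ± 0.54 (SE) with an interval of -2.85 to -0.42. Nfkbie averaged 3.52 ± 2.14 CPM in the hydrogel group and 10.8 ± 6.17 CPM in the Aspirin group, a change of -1.62 ± 0.70. Nfkb2 averaged 24.4 ± 4.45 CPM in the hydrogel group and 36.4 ± 5.55 CPM in the Aspirin group, a change of -0.58 ± 0.25. It was the gene of the 10 whose groups did not overlap, against 8.75% of all genes lower without overlap and 16.2% in either direction.

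These 3 of 10 genes stand against 7.61% of all genes lower at an unadjusted p under 0.05, 3.32% higher and 10.9% in either direction. No gene passed after adjustment (0% of all genes by edgeR), and DESeq2 called 0 of the 10 and 0.854% of all genes, with a lowest adjusted p of 0.118 for Nfkbiz. The count of 3 rested on single libraries. It fell to 0 without Aspirin replicate 1, where Nfkbiz stood at -0.90 (unadjusted p 0.0657), Nfkbie at -1.13 (0.153) and Nfkb2 at -0.58 (0.0701). It fell to 1, Nfkbiz, without hydrogel replicate 1, without hydrogel replicate 3 or without Aspirin replicate 3. Without Aspirin replicate 2 it was 4, with Relb at -0.61 (0.0263) added. The share of all genes lower at that threshold moved as well. It was 2.90% without Aspirin replicate 1, 7.12% without Aspirin replicate 2 and 12.7% without Aspirin replicate 3. Without hydrogel replicate 1 it was 5.72%, and without hydrogel replicate 3 it was 3.09%. The median of the 10 was -0.37, beside -0.053 over all genes, and 3 fold changes were above 0, beside 46.7% of all genes. That median was -0.086 without Aspirin replicate 1, -0.58 without hydrogel replicate 2 and -0.60 without Aspirin replicate 2. Scaled by library size alone, none of the 10 was above 0, with the median of all genes at -0.51. Rel at -0.97 ± 0.71 and Nfkbia at -0.35 ± 0.40 turned to 0.25 and 0.24 without Aspirin replicate 1. Nfkb1 at 0.019 ± 0.25, Rela at -0.089 ± 0.18, Tnfaip3 at 0.085 ± 0.72 and Nfkbib at 0.10 ± 0.24 complete the set, and Relb stood at -0.39 ± 0.26. In the test of any difference among the 3 groups, 0 of the 10 passed after adjustment (0% of all genes) and 1, Nfkbiz, had an unadjusted p under 0.05 (0.0406), against 6.97% of all genes.

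**Figure D2:**
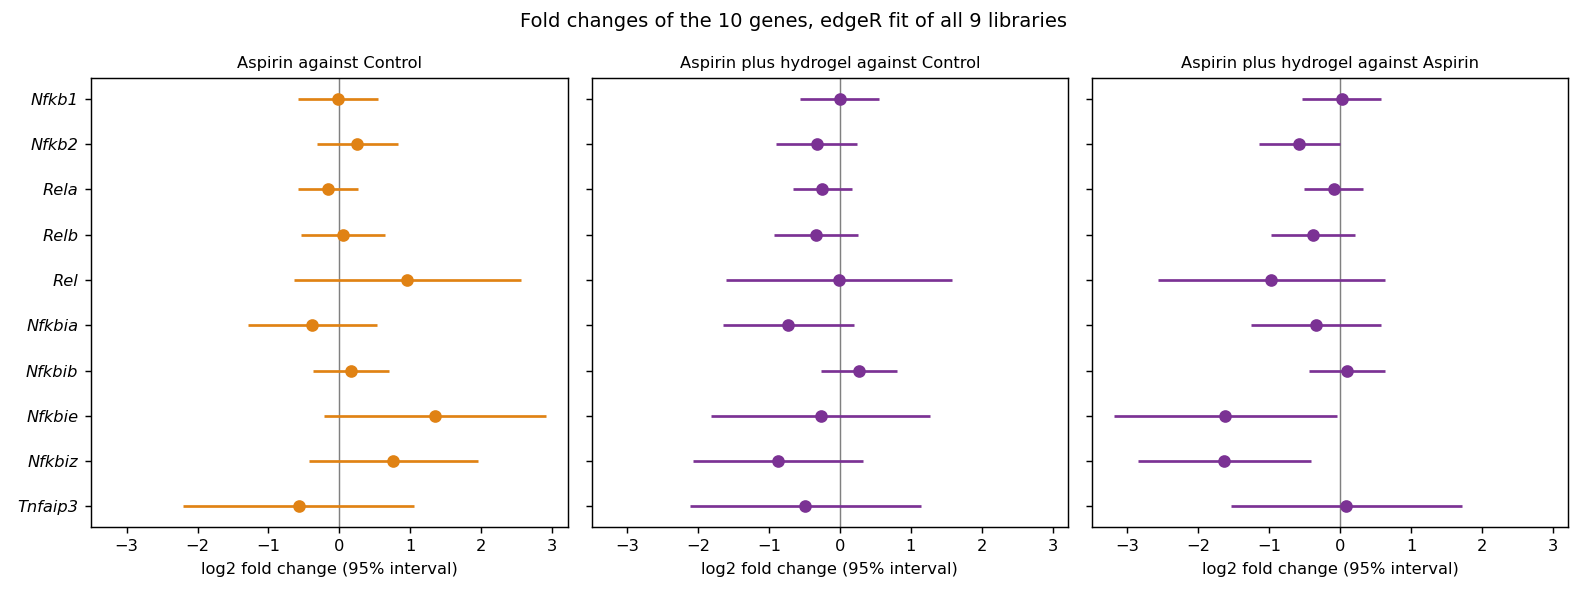
Log2 fold change (horizontal axis, the first-named group over the second) of each of the 10 genes in the 3 comparisons, as a point with its 95% interval from the edgeR fit of all 9 libraries. Intervals that leave out 0 are those of Nfkb2, Nfkbie and Nfkbiz in hydrogel against Aspirin, where Nfkbiz runs from -2.85 to -0.42.

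Ratios within a library do not depend on how libraries are scaled. The level of a ratio does depend on the gene lengths behind the FPKM, as does the weight of each gene in a sum. The ratio of Nfkbia to Nfkbib in deposited FPKM, the fast inhibitor over the slow one, was 1.10, 2.07 and 2.04 in the hydrogel libraries, 5.57, 1.25 and 1.49 in the Aspirin libraries, and 3.35, 3.54 and 3.45 in the Control libraries. The Control libraries lay close together, and 5 of the 6 libraries from treated mice lay below them. The hydrogel group had 0.484 times the Control ratio, with an exact two-sided permutation p of 0.1, the smallest that 3 libraries against 3 allow, and an adjusted p of 0.75 over the 15 tests of 5 ratios. Aspirin replicate 1 stood on the other side, above every other library. The ratio of Nfkb2 to Nfkb1, of the 2 precursors, was 1.84, 1.42 and 1.20 in the hydrogel libraries, 1.79, 2.04 and 3.03 in the Aspirin libraries, and 1.93, 1.74 and 1.80 in the Control libraries. The classical inhibitors together (Nfkbia, Nfkbib and Nfkbie) made 0.856, 0.996 and 1.50 times the summed FPKM of the 5 subunits in the hydrogel libraries, 1.26, 1.00 and 0.920 times in the Aspirin libraries, and 0.955, 1.50 and 1.40 times in the Control libraries, so the groups overlapped.

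**Figure D3:**
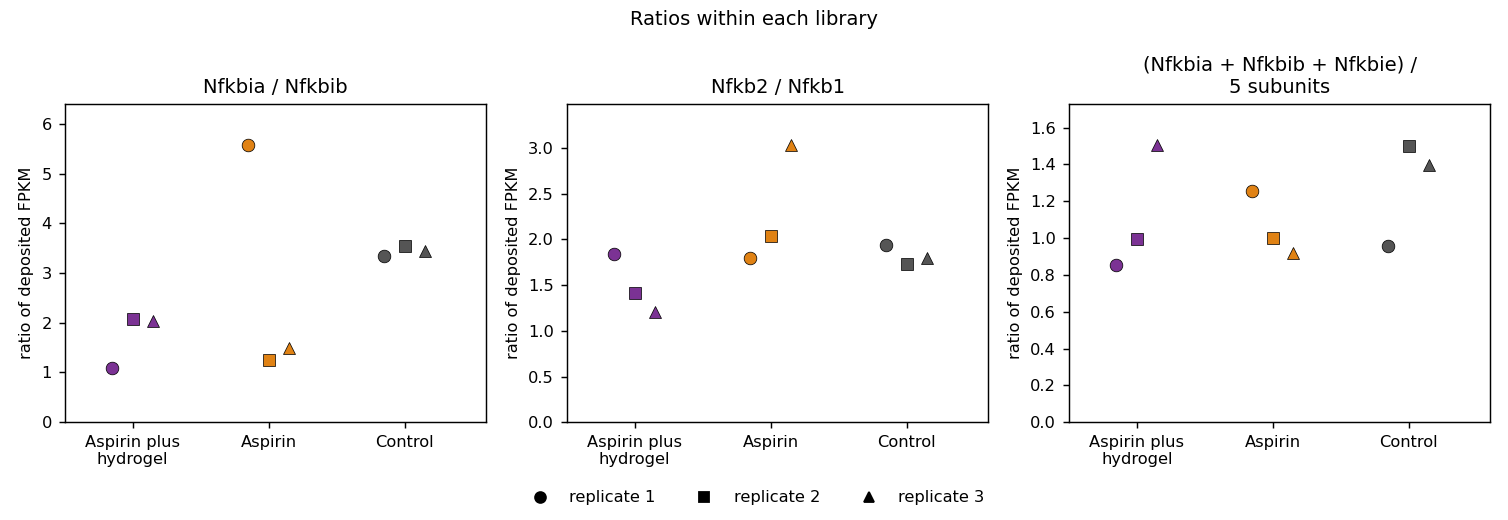
Ratios of deposited FPKM within each library (vertical axis from 0, no unit), by group, with 1 symbol per library. The Nfkbia to Nfkbib ratio lies between 3.35 and 3.54 in the Control libraries and between 1.10 and 2.07 in the hydrogel libraries, with Aspirin replicate 1 alone at 5.57.

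The rest of the pathway was read from 4 lists of 98 genes, of which 95 passed the filter on low counts; Ccl20, Csf2 and Csf3, all targets, did not. No gene of the lists passed edgeR's quasi-likelihood test after adjustment in any comparison. In Aspirin against Control, 67 of the 95 fold changes were above 0, beside 54.0% of all genes. At an unadjusted p under 0.05, 10 genes were higher and 1 was lower, against 3.09% of all genes higher and 3.39% lower. In Aspirin plus hydrogel against Control, 25 were above 0 (47.1% of all genes), with 1 gene higher and 4 lower, against 1.74% and 2.18% of all genes. In Aspirin plus hydrogel against Aspirin, 17 were above 0 (46.7% of all genes), with 1 gene higher and 22 lower, against 3.32% and 7.61% of all genes. These shares of all genes also belong beside the counts of each list below, in the fit of all 9 libraries. The shares given next, with 1 library left out, belong beside the list counts from the same fits. The 22 became 8 without Aspirin replicate 1 (when 2.90% of all genes were lower), 13 without hydrogel replicate 1 (5.72%) and 12 without hydrogel replicate 3 (3.09%). In the first comparison 7 were higher and 4 lower without Aspirin replicate 1 (1.95% and 3.48% of all genes), 14 higher and 5 lower without Aspirin replicate 3 (7.58% and 6.63%), and 5 higher and 0 lower without Control replicate 2 (1.48% and 1.75%). In the second, 1 was lower without Control replicate 3 (2.22% of all genes), 2 without hydrogel replicate 1 (2.48%) or replicate 3 (0.944%), and 6 without Control replicate 2 (2.43%). Scaled by library size alone, 78, 12 and 7 of the 95 were above 0 in the 3 comparisons, in that order. In the third, 0 were then higher and 34 lower, against 1.04% and 13.6% of all genes.

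Among the 21 ligands and receptors that start the signal, all 21 fold changes were below 0 in hydrogel against Aspirin, with a median of -1.05. At an unadjusted p under 0.05, 5 genes were lower, against 7.61% of all genes. Without Aspirin replicate 1, 4 of the 21 were above 0, with a median of -0.49 and 2 lower, and without hydrogel replicate 2 the median was -1.64. Aspirin against Control had a median of 0.82 (17 of 21 above 0, 3 higher), which was 0.19 without Aspirin replicate 1, and hydrogel against Control one of -0.25 (5 of 21 above 0, 1 lower). That last value moved to -0.014 when Control replicate 1 was left out and to -0.031 when hydrogel replicate 3 was, with 10 of 21 above 0 each time, and lay lowest, at -0.52, without hydrogel replicate 2. Il1b, the cytokine interleukin 1β, had 0.968, 0.846 and 0.234 CPM in the hydrogel libraries, 28.0, 2.30 and 36.2 CPM in the Aspirin libraries, and 2.42, 0.134 and 2.41 CPM in the Control libraries. The hydrogel libraries lay below the Aspirin libraries, where replicate 2 stood apart from the other 2, and the change was -5.00 ± 1.26 (edgeR unadjusted p 0.00328, adjusted p 0.453; DESeq2 adjusted p 9.5e-04). Against Control, Il1b stood at 3.74 ± 1.18 in the Aspirin group (adjusted p 0.753 by edgeR, 0.0392 by DESeq2). Il1r1, its receptor, averaged 17.5 ± 5.73 CPM in the hydrogel group and 35.1 ± 11.5 CPM in the Aspirin group (SD, n = 3 each). Its change was -1.004 ± 0.37, or -0.70 without Aspirin replicate 1. For hydrogel against Control it was -0.51 ± 0.37, or -0.18 without Control replicate 2. Tlr2, a receptor for bacterial lipoproteins, averaged 17.1 ± 1.44 CPM in the Aspirin group and 6.91 ± 3.20 CPM in the Control group, a change of 1.30 ± 0.47 with groups that did not overlap. Ltbr, the lymphotoxin β receptor, was at -0.25 ± 0.21 in hydrogel against Control and at -0.15 without Control replicate 3.

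Of the 28 adaptors and kinases, 20 were below 0 in hydrogel against Aspirin, with a median of -0.36. At an unadjusted p under 0.05, 6 were lower and 1 higher, against 7.61% and 3.32% of all genes. Without Aspirin replicate 1 the median was 0.018, with 1 lower and 0 higher, against 2.90% and 2.46% of all genes. Aspirin against Control had a median of 0.24 (18 of 28 above 0, 1 higher and 1 lower), which was -0.14 without Aspirin replicate 1 and 0.43 without either Aspirin replicate 3 or Control replicate 1. Hydrogel against Control had a median of -0.12 (9 of 28 above 0, 1 lower), which ran from -0.23 to -0.032 when 1 library was left out. Myd88, the adaptor of interleukin 1 and most Toll-like receptors, had 11.3, 11.3 and 8.94 CPM in the hydrogel libraries, 29.0, 19.4 and 17.1 CPM in the Aspirin libraries, and 17.2, 12.3 and 18.3 CPM in the Control libraries. The hydrogel libraries were the lowest 3 of the 9, and the change was -1.05 ± 0.26 against Aspirin (unadjusted p 0.00323) and -0.60 ± 0.26 against Control (0.0490) in edgeR's quasi-likelihood test, adjusted p 0.453 and 0.987. The change against Aspirin was -0.79 without Aspirin replicate 1. Ikbkg, the regulatory subunit NEMO of the IκB kinase, lay the other way, with 16.2 ± 5.17 CPM in the hydrogel group, 9.75 ± 2.50 CPM in the Aspirin group and 15.4 ± 1.83 CPM in the Control group. That gave 0.73 ± 0.29 for hydrogel against Aspirin, which was 0.46 without hydrogel replicate 1, and -0.66 ± 0.29 for Aspirin against Control. Traf2, a ubiquitin ligase of the TNF receptor complex, was at 0.45 ± 0.20 in Aspirin against Control, and Tradd, its adaptor, at -0.50 ± 0.40 in hydrogel against Control and at -0.22 without Control replicate 1.

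Among the 19 other inhibitors and regulators the medians were 0.23, -0.081 and -0.26 in Aspirin against Control, hydrogel against Control and hydrogel against Aspirin. At an unadjusted p under 0.05, 1 gene was higher, 1 higher and 2 lower in that order, against 3.09%, 1.74% and 7.61% of all genes. Without Aspirin replicate 1 the first median was 0.043 and the last -0.17, and the middle one ran from -0.16 to -0.0096 when 1 library was left out. Irak3, a brake on Toll-like receptor signalling in macrophages, had 6.10, 8.92 and 7.71 CPM in the hydrogel libraries, 15.7, 11.7 and 15.8 CPM in the Aspirin libraries, and 8.24, 8.22 and 8.32 CPM in the Control libraries. All 3 Aspirin libraries lay above the other 6, with changes of 0.80 ± 0.23 for Aspirin against Control and -0.93 ± 0.23 for hydrogel against Aspirin. The adjusted p of the second was 0.453 by edgeR and 0.0283 by DESeq2. Cyld, a deubiquitinase that opposes the kinase, had 33.6, 33.6 and 29.3 CPM in the hydrogel libraries, 36.6, 15.7 and 15.6 CPM in the Aspirin libraries, and 17.6, 19.0 and 13.7 CPM in the Control libraries. The hydrogel libraries lay above the Control libraries, with a change of 0.94 ± 0.34 (edgeR unadjusted p 0.0218, adjusted p 0.987). Tnip2, a partner of A20, was at -0.69 ± 0.25 in hydrogel against Aspirin and at -0.40 without Aspirin replicate 1. Itch, a ubiquitin ligase that works with A20, was at 0.43 ± 0.22 in Aspirin against Control and at 0.21 without Aspirin replicate 1, and Pdlim2 at -0.80 ± 0.46 in hydrogel against Control, or -0.34 without Control replicate 1.

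Of the 27 known targets tested, 9 were lower in hydrogel against Aspirin at an unadjusted p under 0.05, against 7.61% of all genes. In that comparison 25 were below 0, with a median of -1.82. That median was -0.80, with 4 lower, without Aspirin replicate 1, and 4 and 6 were lower without hydrogel replicates 1 and 3. In Aspirin against Control 19 were above 0, with a median of 0.64 and 5 higher, and without Aspirin replicate 1 the median was 0.15 with 4 higher and 1 lower. Without Control replicate 3 it was 1.10 with 6 higher, against 2.51% of all genes. In hydrogel against Control 21 were below 0, with a median of -0.60 and 2 lower. The median was -1.12 without hydrogel replicate 2, -0.33 without hydrogel replicate 3 and -0.36 without Control replicate 3. Without Control replicate 1, 5 were lower, against 1.16% of all genes. Saa3, an acute-phase protein, had 5.10, 4.05 and 0.601 CPM in the hydrogel libraries, 869, 2.95 and 301 CPM in the Aspirin libraries, and 2.46, 0.536 and 6.66 CPM in the Control libraries. Its high values came from Aspirin replicates 1 and 3 while replicate 2 lay in the range of the other groups, and the changes were 6.93 ± 1.86 for Aspirin against Control and -6.90 ± 1.86 for hydrogel against Aspirin. With all 9 libraries the adjusted p of these changes was 0.753 and 0.453 by edgeR, and 0.00357 and 0.00301 by DESeq2. Those changes were 5.57 and -5.53 without Aspirin replicate 1. Cxcl2, a neutrophil-attracting chemokine, followed the same libraries, with 6.60, 0.328 and 6.97 CPM in the Aspirin libraries and 0.573, 0.112 and 0.145 CPM in the Control libraries. Its change was 4.03 ± 1.19 in Aspirin against Control (adjusted p 0.753 by edgeR, 0.0292 by DESeq2). Mmp9, a matrix protease of neutrophils and macrophages, had 2.30, 3.81 and 1.97 CPM in the hydrogel libraries, 51.5, 15.6 and 36.2 CPM in the Aspirin libraries, and 9.29, 4.20 and 105 CPM in the Control libraries. The hydrogel libraries were the lowest 3, at -3.68 ± 1.12 against Aspirin and -3.87 ± 1.13 against Control, and DESeq2 called both (adjusted p 0.0171 and 0.0492) while edgeR did not (0.453 and 0.987). Against Aspirin the change was -3.26 without Aspirin replicate 1, and against Control it was -1.34 without Control replicate 3. Cxcl10, an interferon-responsive chemokine, was at -3.48 ± 1.13 in hydrogel against Control and at -0.93 without Control replicate 3, which alone held 39.4 CPM.

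**Figure D4:**
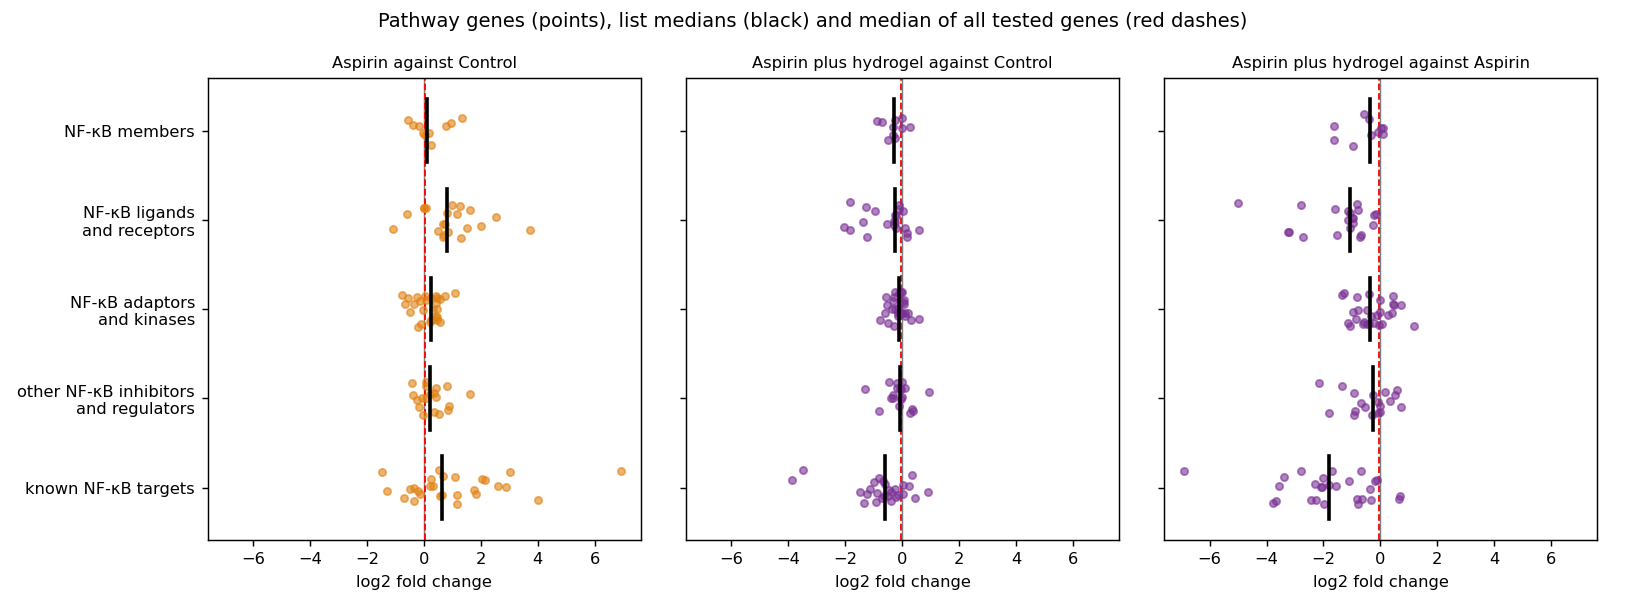
Log2 fold changes (horizontal axis) of the 10 NF-κB genes and of the genes of 4 pathway lists in the 3 comparisons, with 1 point per gene, the list median as a black bar and the median of all tested genes as a red dashed line. The medians of ligands and receptors and of known targets lie farthest from the red line, at -1.05 and -1.82 in hydrogel against Aspirin.

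Cell type markers also differed between groups. Means of all 12 macrophage markers were higher in Aspirin than in Control and lower in hydrogel than in Aspirin; their summed level was 655 to 1437 CPM in the hydrogel libraries, 1417 to 3175 CPM in the Aspirin libraries and 705 to 1838 CPM in the Control libraries. Of the 10 neutrophil markers, 9 were higher in Aspirin than in Control, and all 10 were lower in hydrogel than in either other group. Their sum was 11.2 to 33.6 CPM in the hydrogel libraries, 24.6 to 392 CPM in the Aspirin libraries and 20.8 to 105 CPM in the Control libraries. Ly6g, which defines the cell type, was the marker with a lower mean in Aspirin than in Control. It had 0.782, 0 and 0.200 CPM in the Aspirin libraries and 1.07, 0.067 and 0 CPM in the Control libraries. It was at 0 in hydrogel replicates 2 and 3, Aspirin replicate 2 and Control replicate 3, which allows up to 0.0703 to 0.1001 CPM (3 counts, counting error only). The 2 Aspirin libraries with high Nfkbie, Nfkbiz, Il1b and Saa3, replicates 1 and 3, were the 2 highest in the neutrophil sum, at 392 and 156 CPM. Lymphocyte markers summed to 9.34 to 137 CPM in the hydrogel libraries, 8.29 to 1069 CPM in the Aspirin libraries and 21.1 to 401 CPM in the Control libraries. Fibre markers summed to between 177145 and 343654 CPM in the hydrogel libraries, 23539 and 274739 CPM in the Aspirin libraries, and 109686 and 240736 CPM in the Control libraries. Endothelial markers, all 10 with lower means in Aspirin than in Control, summed to 346 to 530 CPM in the hydrogel libraries, 249.2 to 345 CPM in the Aspirin libraries and 423 to 718 CPM in the Control libraries. Adipocyte markers, all 6 with lower means in both treated groups than in Control, summed to 309 to 1535 CPM in the hydrogel libraries, 276 to 742 CPM in the Aspirin libraries and 1381 to 2015 CPM in the Control libraries. The 3 satellite cell markers had higher means in hydrogel than in either other group, with sums of 40.2 to 50.8 CPM in the hydrogel libraries, 13.2 to 39.0 CPM in the Aspirin libraries and 14.5 to 24.4 CPM in the Control libraries. Fibroblast markers summed to 4504 to 6946 CPM in the hydrogel libraries, 5966 to 10948 CPM in the Aspirin libraries and 6517 to 11070 CPM in the Control libraries. The part of these cell types in the NF-κB values was not tested.

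**Figure D5:**
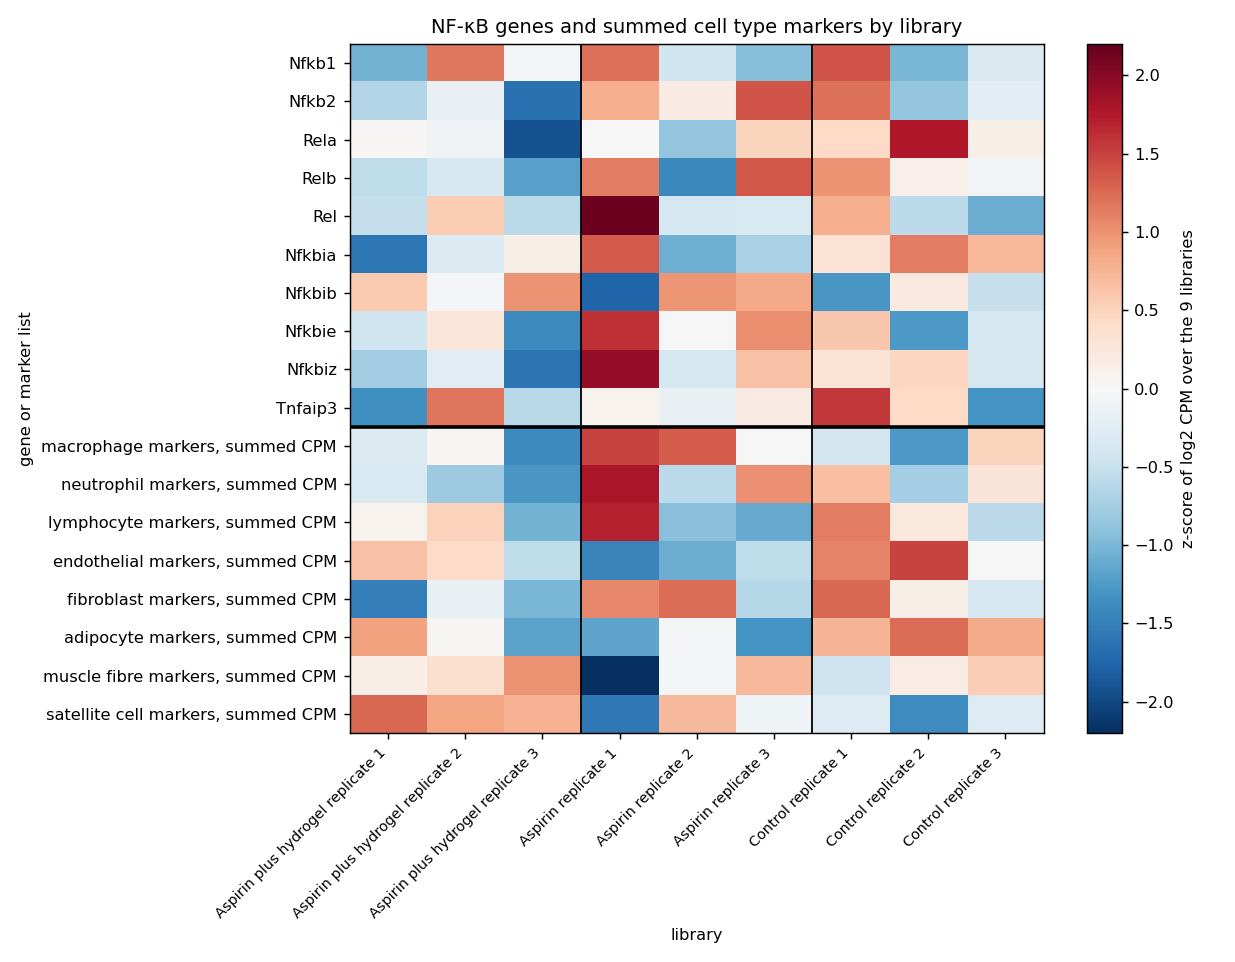
Colour gives the z-score of log2 CPM over the 9 libraries for each of the 10 genes (rows above the line) and for the summed CPM of 8 cell type marker lists (rows below it), with libraries in columns. Aspirin replicate 1 is high in the macrophage, neutrophil and lymphocyte rows and in Rel (z-score 2.16), Nfkbiz (1.94) and Nfkbie (1.61), and low in Nfkbib (-1.77) and the muscle fibre row.

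The 10 genes did not follow 1 pattern across libraries. Measured as the mean absolute difference between a gene's z-scored log2 CPM and the average of the 10 over the 9 libraries, Nfkbiz lay nearest to that average at 0.394 and Nfkbib farthest at 1.09. The average itself was highest in Aspirin replicate 1 (0.85) and lowest in hydrogel replicate 3 (-0.79). Among the 11047 genes averaging at least 5 CPM, whose median difference was 0.903, the nearest 5 were Ugcg at 0.327, Birc3 at 0.335, Pde1b at 0.341, Cytip at 0.347 and BC017158 at 0.366. Birc3, the ubiquitin ligase cIAP2 of the TNF receptor complex, had 9.22, 22.4 and 8.68 CPM in the hydrogel libraries, 68.0, 12.0 and 17.3 CPM in the Aspirin libraries, and 26.9, 18.0 and 12.9 CPM in the Control libraries. Ugcg, a glycolipid-making enzyme, had 26.5, 35.4 and 14.8 CPM in the hydrogel libraries, 87.0, 34.4 and 40.9 CPM in the Aspirin libraries, and 45.3, 34.6 and 30.5 CPM in the Control libraries. Aspirin replicate 1 was the highest library of both and hydrogel replicate 3 the lowest. Both genes were picked for lying near the average of the 10, so this likeness to it is no separate result.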

How the data were processed

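Leg muscle RNA of 9 mice was made into libraries with a SMARTER mRNA-seq kit, as the labels' protocols state. The authors deposited whole, unnormalised counts per Ensembl gene, and FPKM values (fragments scaled by gene length and library size) for the same genes and libraries. The genome build, per the submitters' processing notes, was mm10. Aligner, counting tool, annotation and strand setting were not given in the sources used here. As a check, scaled counts were divided by deposited FPKM in 10432 well-covered genes. After the median offset of each library was removed, 99.2% of these ratios were within 1% of their gene's typical value. No 2 libraries agreed within sampling noise (smallest chi-square per degree of freedom 73.7).

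Groups came from the treatment labels, with 3 mice each. The samples also carry code numbers of unstated meaning (9 for Control, 8 for hydrogel, 7 for Aspirin replicates 1 and 2, 10 for Aspirin replicate 3). None is shared between groups, so a batch they might mark cannot be told apart from treatment. The labels do not say that a replicate number marks a shared animal or batch, so the main fit had no block. Same-numbered deviations of Aspirin and Control correlated at 0.54, 0.12 and 0.21, too few values to decide whether the numbers pair mice. A fit blocked on replicate number changed no call in Aspirin against Control.

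Counts of all 9 libraries were fitted once with edgeR 4.0.16 in R 4.3.3 (quasi-likelihood test, robust, TMM scaling, filterByExpr with minimum count 10 and total 15). P-values were adjusted by Benjamini-Hochberg over 18259 genes, with a threshold of 0.05, and the quasi-likelihood F gave the standard errors. The procedure was also run on simulated counts with set fold changes. These were drawn without outlying libraries, and the error rates are not given here. CPM are counts scaled by TMM-adjusted library size. The common biological coefficient of variation was 0.503. DESeq2 1.42.0 and limma 3.58.1 gave alternatives. Scaling by library size without TMM shifted all genes by a median of 0.23 log2 units in Aspirin against Control, -0.23 in hydrogel against Control and -0.46 in hydrogel against Aspirin.

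The NF-κB genes and all lists were chosen with earlier results of these data known, so their counts are descriptions. Where no gene of a pathway list passed the threshold, the text names the 2 with the smallest unadjusted p among those with a mean of 1 CPM or more, in each comparison. The 5 genes most like the NF-κB average were named by rule. The stricter κB consensus was added after the data were seen. A search of the inhibitor proteins was planned, but protein sequences were not used here.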

Additional observations from a re-analysis of the deposited data

How the results depend on the processing

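The 10 genes were tried under 480 alternative settings in all, counting each gene, comparison and setting once. 429 kept the direction of the fold change and 51 turned it, none of them past the threshold in any fit. RLE scaling, no filter on low counts, DESeq2 and a fit of only the 2 groups compared turned none. In Aspirin against Control, library size alone turned Nfkb1 to 0.24, Rela to 0.078 and Nfkbia to 0.039, log2(FPKM + 0.1) turned Nfkb1 to 0.17 and Rela to 0.030, with and without a filter, log2(FPKM + 1) turned them to 0.14 and 0.030, and limma-voom turned Relb to -0.0045. In Aspirin plus hydrogel against Control, limma-voom turned Nfkb1 to 0.014 and Rel to 0.049, and the replicate block turned them to 0.022 and 0.30. In Aspirin plus hydrogel against Aspirin, library size alone turned Nfkb1 to -0.50, Nfkbib to -0.30 and Tnfaip3 to -0.31, log2(FPKM + 0.1) to -0.38, -0.28 and -0.62, and log2(FPKM + 1) to -0.31, -0.25 and -0.30. There limma-voom turned Tnfaip3 to -0.31 and the replicate block to -0.12. Leaving out 1 library turned these, with the lowest and highest fold change. In Aspirin against Control, Nfkb1 ran from -0.21 to 0.17, Relb from -0.083 to 0.28, Rel from -0.28 to 1.63 and Tnfaip3 from -1.01 to 0.22. In Aspirin plus hydrogel against Control, Nfkb1 ran from -0.15 to 0.19, Rel from -0.44 to 0.66, Nfkbie from -0.83 to 0.47 and Tnfaip3 from -1.50 to 0.30. In Aspirin plus hydrogel against Aspirin, Nfkb1 ran from -0.14 to 0.20, Rel from -1.43 to 0.25, Nfkbia from -0.60 to 0.24, Nfkbib from -0.096 to 0.23 and Tnfaip3 from -0.93 to 0.48. The cause of these turns was not tested. Of the 384 alternatives for the named pathway genes, chosen after the data were seen, none turned and 8 passed the threshold, all 8 by DESeq2. The count of all genes past an adjusted p of 0.05 was 0 in each comparison by edgeR and by DESeq2 102 in Aspirin against Control, 18 in Aspirin plus hydrogel against Control and 156 in Aspirin plus hydrogel against Aspirin. In the last it was 1 with the replicate block and 0 to 2 when 1 library was left out, and the count of the 10 NF-κB genes was 0 throughout. At an unadjusted p under 0.05 the replicate block left 1 of the 10 in Aspirin plus hydrogel against Aspirin, Nfkbiz, in place of 3. In that fit 6.09% of all genes were higher and 7.67% lower. A fit of the 2 groups alone gave 2, Nfkbia and Nfkbiz, in Aspirin plus hydrogel against Control in place of 0. There 3.23% of all genes were higher and 3.45% lower, against 1.74% and 2.18% in the main fit. Same-numbered deviations correlated at 0.22, -0.33 and 0.40 between hydrogel and Aspirin and at 0.17, -0.17 and 0.28 between hydrogel and Control. These few values cannot decide whether the numbers pair those groups either. With 3 libraries a group the intervals of Rel, Nfkbie and Tnfaip3 were more than 3 log2 units wide in every comparison.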
